A study of Mus musculus with 8 samples.

Results

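The secreted and membrane-bound enzymes that cut the extracellular matrix, and the inhibitors that hold them in check, were followed across the cells of mouse long bone periosteum. The set held 33 of the 32285 genes listed in the deposited matrices: 13 matrix metalloproteinases (MMPs), 16 ADAMTS proteases and the 4 tissue inhibitors of metalloproteinases (TIMPs). Members were taken by gene symbol, and Mmp8, Mmp9 and Mmp25 were left out because neutrophils store them in granules. Cells came from the left femurs and tibias of male C57BL/6J mice killed at 16 weeks of age, after digestion of the periosteum with collagenase and dispase. The labels name 4 mice kept on normal diet (ND) and 4 kept on a high-fat diet (HFD) for 12 weeks from an age of 4 weeks. All cells of one diet stood in 1 matrix, with no barcode assigned to a mouse, so each diet was 1 pooled library and no difference between diets could be tested.

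MMPs and ADAMTS proteases are zinc enzymes made as inactive precursors. Mmp13 is the main collagenase of mouse bone and cleaves fibrillar collagen, Mmp2 is a gelatinase that takes over the cut collagen, and Mmp14 sits in the cell membrane, where together with Timp2 it activates pro-Mmp2. Within the ADAMTS family, Adamts1, Adamts4 and Adamts5 cut aggrecan, versican and other proteoglycans, while Adamts2, Adamts3 and Adamts14 remove the amino-terminal propeptide of procollagens. The TIMPs block MMPs, and Timp3, which is bound to the matrix, also blocks several ADAMTS enzymes. In bone these proteins serve matrix turnover during modelling and repair, and the periosteum is the connective sheath that holds the progenitors for both.

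The assay tags each RNA molecule at its 3′ end with a cell barcode and a unique molecular identifier (UMI), so a count is a number of molecules and needs no correction for gene length. Levels are given as CPM, the UMIs of a gene per 1000000 UMIs of the cell group, intervals are exact 95% intervals, and these cover counting error only. After filtering, 6029 ND and 6224 HFD cells remained, with a median of 4610 and 4823.5 UMIs per cell, and 15 barcodes occurred in both libraries. Clusters were built without the 33 members and the 3 genes left out, and were named as "X-like" from marker lists. The mesenchymal-like class held 409 ND and 669 HFD cells, and all 6 of its markers (Pdgfra, Prrx1, Col1a1, Col1a2, Dcn and Lum) were detected in both clusters that made it up. It split into Ccl11/Col15a1 fibroblast-like cells (93 ND and 160 HFD), Pi16/Dpp4 fibroblast-like cells (94 and 107), Tnmd-low tenocyte-like cells (89 and 125), osteogenic-like cells (58 and 128), 3 small groups and 2 clusters that stayed unnamed. In the osteogenic-like cells the lists for Postn-high osteogenic cells and for osteoblasts stood about equally high, with Postn at 4877 (ND) and 5116 (HFD) CPM and Bglap at 5496 and 6119, so that no finer name was given. No cluster met the osteoclast list.

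Mmp13, Mmp12 and Mmp3 lie in this order on chromosome 9 on the plus strand (GRCm38, GENCODE vM21). The coding gene Mmp1b, which is not in the set, overlaps Mmp12 on the opposite strand. Mmp13 covers chr9:7272514-7283331, Mmp12 chr9:7344381-7369499 and Mmp3 chr9:7445822-7455975, with gaps of 61050 and 76323 bp between them. As described below, Mmp13 was read mainly in osteogenic-like cells, Mmp12 mainly in few macrophage or monocyte-like cells of the HFD library, and Mmp3 in Tnmd-low tenocyte-like and Ccl11/Col15a1 fibroblast-like cells. Their promoters are shown because these 3 genes, unlike the other members with an entry, each had a window with an AP-1 motif. Mmp12 had a further window that is not shown, nearer the start of the gene (chr9:7344147-7344446). It held no match for AP-1, RUNX or TATA. The windows run from 250 bases before to 50 bases after the RefSeq start (GRCm38.p6, plus strand), and capitals mark motif matches found on either strand. The letters searched were TGANTCA for AP-1. For RUNX they were TGTGGT. For the TATA box they were TATAAA, and no match overlaps another in these windows.
Mmp13, chr9:7272264-7272563: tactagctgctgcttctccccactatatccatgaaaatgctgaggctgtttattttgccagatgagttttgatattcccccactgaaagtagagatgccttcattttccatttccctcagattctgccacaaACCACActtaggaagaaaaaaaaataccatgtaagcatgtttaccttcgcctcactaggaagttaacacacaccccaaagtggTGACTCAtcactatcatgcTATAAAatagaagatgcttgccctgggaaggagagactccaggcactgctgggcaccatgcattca
Mmp3, chr9:7445572-7445871: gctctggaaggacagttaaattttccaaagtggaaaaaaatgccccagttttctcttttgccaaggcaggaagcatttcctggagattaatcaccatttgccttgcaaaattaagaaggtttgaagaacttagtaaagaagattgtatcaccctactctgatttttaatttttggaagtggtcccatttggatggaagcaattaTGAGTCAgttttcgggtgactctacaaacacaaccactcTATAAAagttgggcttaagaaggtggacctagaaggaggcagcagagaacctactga
Mmp12, chr9:7347124-7347423: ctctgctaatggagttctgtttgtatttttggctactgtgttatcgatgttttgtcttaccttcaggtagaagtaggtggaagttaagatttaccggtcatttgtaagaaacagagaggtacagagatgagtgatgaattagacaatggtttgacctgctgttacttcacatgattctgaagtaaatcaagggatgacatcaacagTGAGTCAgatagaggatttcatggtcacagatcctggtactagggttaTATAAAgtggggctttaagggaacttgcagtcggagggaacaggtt
AP-1 is the dimer of Fos and Jun proteins, and its motif began at position -35 from the start in Mmp13, -46 in Mmp3 and -44 in the Mmp12 window shown. RUNX is the site of Runx2, the transcription factor that defines osteoblasts, and in these 3 windows it was matched in Mmp13 alone, at position -118 and on the opposite strand. Of all 32851 promoter windows in the RefSeq table, 7.81% held the AP-1 letters, 16.8% the RUNX letters and 13.6% the TATA letters. The table had 23 windows for 21 of the 33 members, AP-1 was matched in 3 of these windows, and RUNX was also matched in Mmp14 and Mmp23. A match is a run of letters and was not tested as a binding site.

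Most transcripts of the set were read in mesenchymal-like cells. These cells made up 6.78% (95% interval 6.16 to 7.45) of kept cells in ND and 10.75% (9.99 to 11.5) in HFD. They had 4780538 of 48106513 kept UMIs in ND and 6974532 of 49411888 in HFD. Of all member UMIs they held 62.1% in the ND library and 70.6% in the HFD library. Neutrophil-like cells held 14.98% and 11.9%, macrophage or monocyte-like cells 11.2% and 5.20%, endothelial-like cells 4.54% and 5.62%, and pericyte or smooth muscle cell-like cells 2.35% and 3.56%. Of the 33 members, 31 had at least 20 UMIs over both libraries, the exceptions being Mmp24 with 2 UMIs and Adamts20 with 6. Among those 31, 13 were highest in mesenchymal-like cells in both libraries, 5 in endothelial-like cells (Mmp15, Mmp28, Adamts9, Timp3 and Timp4), 3 in pericyte or smooth muscle cell-like cells (Adamts1, Adamts4 and Adamts15), 2 in Schwann cell-like cells (Mmp17 and Adamts10), 1 in NK cell-like cells (Adamts14) and 1 in macrophage or monocyte-like cells (Mmp12). For the other 6 (Mmp11, Mmp19, Adamts6, Adamts7, Adamts8 and Adamts12) the highest class was not the same in the 2 libraries. Some of these ranks rest on few UMIs. Mmp28 had 2 (ND) and 7 (HFD) UMIs in endothelial-like cells, and Adamts15 had 4 and 15 in pericyte or smooth muscle cell-like cells. Several members were nearly restricted to the mesenchymal-like class in these counts: it held from 95.02% (Mmp2 in ND) to 96.95% (Mmp13 in ND) of the UMIs of Mmp2, Mmp13, Mmp23, Adamts2 and Timp1 in both libraries. Fewer cells of a type and less RNA per cell cannot be told apart in such shares of a library.

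**Figure D1:**
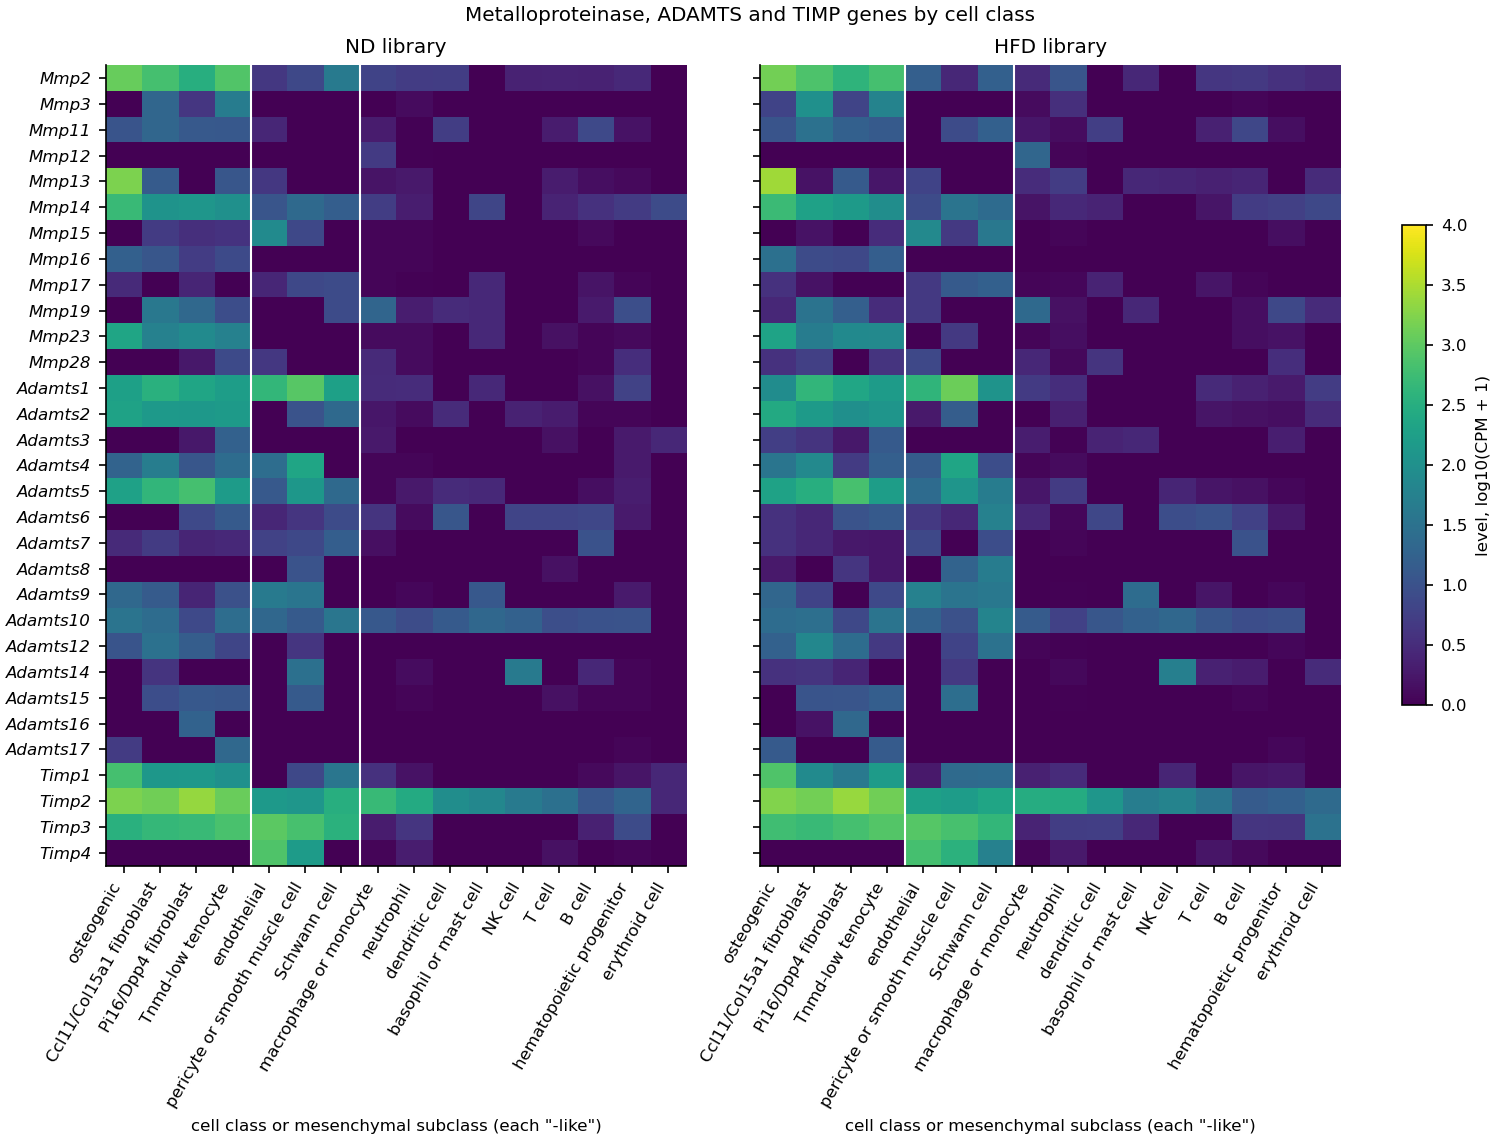
Level of each of the 31 members with at least 20 UMIs, as log10(CPM + 1) in colour, by cell class and by the 4 larger mesenchymal subclasses (left of the first white line), in the ND and HFD libraries. The mesenchymal subclasses carry most rows, with Mmp13 at 1642 (ND) and 2707 (HFD) CPM in osteogenic-like cells and Timp4 at 785 and 665 in endothelial-like cells.

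The subclasses of mesenchymal-like cells divided the enzymes between them. Among the 4 larger subclasses, osteogenic-like cells had the highest levels of Mmp13, Mmp2, Mmp14 and Mmp23. Mmp13 stood at 1642 CPM (95% interval 1532 to 1757) in ND and 2707 (2610 to 2806) in HFD, Mmp2 at 1192 and 1388, Mmp14 at 522 and 527, and Mmp23 at 221 and 210.4. Among the other 3 no level exceeded 194 for Mmp14 or 80.7 for Mmp23, whereas Mmp2 reached 809 in ND Tnmd-low tenocyte-like and 767 in HFD Ccl11/Col15a1 fibroblast-like cells. Osteogenic-like cells held 605 of 2920 (ND) and 1530 of 5114 (HFD) mesenchymal Mmp2 UMIs, so most Mmp2 lay elsewhere. Adamts5, the main aggrecanase of mouse cartilage, was instead the highest of the 4 in Pi16/Dpp4 fibroblast-like cells, a fibroblast state found in many tissues, at 661 in ND and 684 in HFD. The small unnamed mesenchymal cluster 4 stood at 674 and 530.4. In Pi16/Dpp4 fibroblast-like cells the median cell held 518.5 and 545 CPM and 83 of 94 and 89 of 107 cells had at least 1 UMI of Adamts5. Adamts16 was read mostly in the same cells (17.1 and 21.3 CPM), which held 21 of its 32 mesenchymal UMIs in ND and 27 of 29 in HFD. Tnmd-low tenocyte-like cells held most of Adamts17 (22 of 25 mesenchymal UMIs in ND and 18 of 33 in HFD, where another 14 lay in osteogenic-like cells) and much of the procollagen propeptidase Adamts3 (17 of 23 and 17 of 39). Ccl11/Col15a1 fibroblast-like cells were the highest of the 4 for Adamts1 (346 and 427.5), Adamts4 (47.8 and 75.2), Adamts12 (29.85 and 69.9) and Mmp19 (38.8 and 32.6).

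Among the inhibitors, Timp2 was the most abundant transcript of the whole set. It stood at 2316 (ND) and 2384 (HFD) CPM in Pi16/Dpp4 fibroblast-like cells, at 1612 and 1732 in osteogenic-like cells, at 1379 and 1420 in Ccl11/Col15a1 fibroblast-like cells and at 1237 and 1379 in Tnmd-low tenocyte-like cells, and 97.1% and 97.2% of all mesenchymal-like cells had at least 1 UMI. Timp3 had its highest level among the 4 in Tnmd-low tenocyte-like cells (711.5 and 836) and Timp1 in osteogenic-like cells (650 and 778). Timp4 was all but missing from mesenchymal-like cells, with 0 UMIs in ND (which allows up to 0.6275 CPM) and 4 in HFD.

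Between diets, mesenchymal-like cells differed in few members. Of the 25 members with at least 20 UMIs in this class, 3 were at least 1.5-fold higher in the HFD library (Mmp3, Mmp13 and Adamts12) and 1 was at least 1.5-fold lower (Adamts16). Over all 12622 genes with as many UMIs, 8.03% were higher and 5.82% lower by that rule, so both counts of members lay near the background. The median log2 ratio of HFD over ND was 0.17 for the 25 members and 0.05 for all those genes. Most Adamts16 UMIs lay in Pi16/Dpp4 fibroblast-like cells, which were 94 of 409 ND and 107 of 669 HFD mesenchymal-like cells. With the same subclass weights in both libraries, or with equal weight for each cell, the lower member was Adamts9 in place of Adamts16. The MMPs together stood at 1082 CPM in ND and 1554 in HFD, the ADAMTS members at 833 and 798, and the TIMPs at 2310 and 2454.

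**Figure D2:**
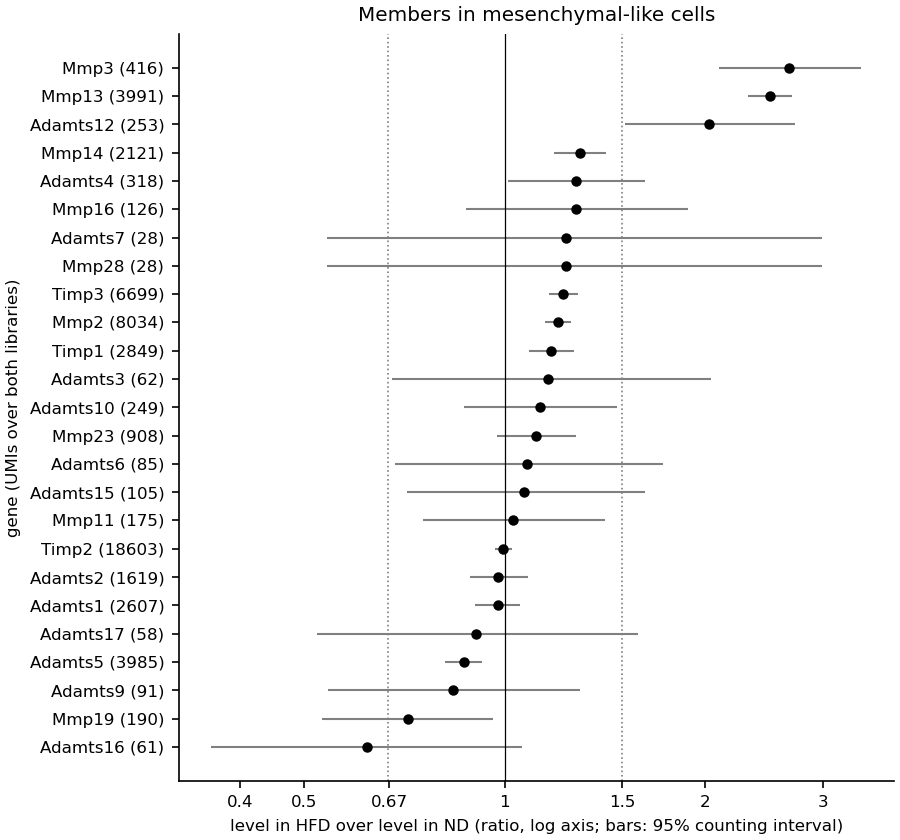
Ratio of the level in the HFD library over that in the ND library for the 25 members with at least 20 UMIs in mesenchymal-like cells, on a log axis, with the exact 95% counting interval as bars, the UMIs over both libraries in brackets and dotted lines at 1.5-fold. Mmp3 (2.67), Mmp13 (2.50) and Adamts12 (2.02) stand to the right of the upper line, and the interval of Adamts16 (0.621) crosses 1.

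Mmp3, a stromelysin with a wide range of substrates, had a level over all mesenchymal-like cells of 17.8 CPM (ND) and 47.5 CPM (HFD), a ratio of 2.67 (2.10 to 3.43). Mmp13 stood at 179.5 and 449 (ratio 2.50, 2.32 to 2.70), and Adamts12, which cleaves cartilage oligomeric matrix protein, at 13.4 and 27.1 (2.02, 1.52 to 2.73). Smaller excesses in HFD that the counting interval separated from 1 were found for Mmp14 (1.295, 1.18 to 1.42), Timp3 (1.22, 1.16 to 1.29), Mmp2 (1.20, 1.15 to 1.26), Timp1 (1.17, 1.09 to 1.27) and Adamts4 (1.28, 1.01 to 1.625). Adamts5 (0.867, 0.8145 to 0.924) and Mmp19 (0.715, 0.532 to 0.961) were lower in HFD. For Timp2 the interval of the ratio held 1 (1587 and 1579, ratio 0.995, 0.966 to 1.025), and so were Adamts1 (225 and 219.5) and Adamts2 (139.5 and 136.5). The other members with at least 20 UMIs lay between 0.621 for Adamts16 (6.69 and 4.16) and 1.28 for Mmp16 (9.20 and 11.8), each with an interval that held 1: Mmp11, Mmp23, Mmp28, Adamts3, Adamts6, Adamts7, Adamts9, Adamts10, Adamts15, Adamts16 and Adamts17. How cells were counted moved all 3 higher members. After thinning each cell to 1000 UMIs the log2 ratio of Mmp3 went from 1.41 to 0.505 and that of Adamts12 from 1.01 to 0.07, both under 1.5-fold, while Mmp13 stayed above it and Mmp14 and Adamts4 passed it. With equal weight for each cell the log2 ratios of Mmp3, Adamts12 and Mmp13 were 0.76, 0.50 and 0.92. With the same subclass weights in both libraries, the ratios of Mmp2, Mmp13, Mmp14, Adamts5, Timp1 and Timp2 moved out of the intervals given here. The ratios above are sums over a class whose mix of subclasses differed between the libraries. None of these intervals holds the spread between mice, which the pooled libraries do not show.

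Mmp13 was a gene of the osteogenic-like cells, and its transcripts were concentrated in few of them. These cells held 833 of 858 mesenchymal Mmp13 UMIs in ND and 2984 of 3133 in HFD, and 130 more HFD UMIs lay in 3 cells of an unnamed cluster that is led by neutrophil genes. Osteogenic-like cells were 58 of 409 mesenchymal-like cells in ND and 128 of 669 in HFD. With the same subclass weights in both libraries the log2 ratio of Mmp13 was 0.795, against 1.32 as counted. Within osteogenic-like cells the ratio was 1.65 (1.53 to 1.78).

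Single cells showed where this excess lay. Mmp13 had at least 1 UMI in 44 of 58 ND cells (75.9%, Clopper-Pearson 95% interval 62.8 to 86.1) and 93 of 128 HFD cells (72.7%, 64.1 to 80.2), at a median depth of 7516.5 and 7238 UMIs. After thinning each cell to 1000 UMIs these shares were 48.3% and 48.4%. Among B cell-like cells, where no Mmp13 is known to be made, 3 of 1525 (ND) and 12 of 1483 (HFD) had an Mmp13 UMI, at a median depth of 3877 and 3819 UMIs. The median osteogenic-like cell held 740 CPM in ND and 707 in HFD, while the upper quartile was 1856 and 2538 and the highest cell 14238 and 29419. The lower quartile was 103.9 in ND and 0 in HFD. Thus the libraries had like shares of Mmp13-positive cells and like medians. In HFD the upper part of the distribution was higher and the lower quartile was lower. In ND 5 cells and in HFD 8 cells held at least 50% of the osteogenic Mmp13 UMIs, and without the highest cell the levels were 1484 and 2449.

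**Figure D3:**
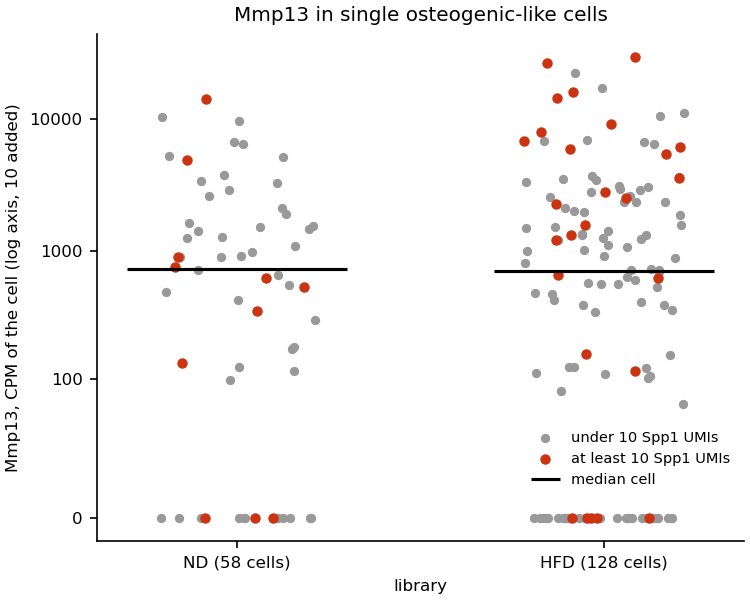
Mmp13 in each osteogenic-like cell of the ND (58 cells) and HFD (128 cells) libraries, in CPM of the cell on a log axis with 10 added, with cells that hold at least 10 Spp1 UMIs in red and the median cell as a bar. The medians lie at 740 and 707, and the highest cells at 14238 and 29419.

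As a group, the cells with most Mmp13 UMIs had the highest summed level of Spp1, the osteopontin gene, and of Ibsp, the bone sialoprotein gene, both of which encode acidic matrix proteins of mineralising bone. Over both libraries, the 68 osteogenic-like cells with at least 10 Mmp13 UMIs stood at 16159 CPM for Spp1, the 69 cells with fewer at 804.6 and the 49 cells with none at 1353. Few cells carried the Spp1 sum: 6 of the 68 held 10600 of their 12672 Spp1 UMIs, 20 had at least 10 and 37 had none. Ibsp followed the same order with 7976, 3184 and 3243, and Timp1 with 1176, 276 and 403. Bglap, the osteocalcin gene of mature osteoblasts, was highest in the cells without Mmp13 (5564, 5010 and 8460), and Mmp2 (1234, 1567 and 1143) and Timp2 (1816, 1809 and 1177) did not follow Mmp13. The 3 groups differed in depth, with medians of 9626.5, 7270 and 4830 UMIs per cell, and the split used Mmp13 itself.

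When osteogenic-like cells were split by Spp1 instead, the diets differed in Mmp13 in 1 of the 2 fractions. This split was chosen after the values were seen. Spp1 itself stood at 2231 CPM in ND and 11219 in HFD over all osteogenic-like cells. Its highest cell held 775 and 3021 UMIs, so cells with at least 10 Spp1 UMIs were not matched on Spp1 between the libraries. In cells with fewer than 10 Spp1 UMIs (47 ND and 102 HFD cells), Mmp13 stood at 1664 CPM (1542 to 1793) in ND and 1763 (1673 to 1858) in HFD. In cells with at least 10 (11 ND and 26 HFD cells, 19.0% and 20.3%), it stood at 1540 (1297 to 1815) and 5231 (4975 to 5496). Few cells carried these sums too: 1 ND cell held 83 of 142 Mmp13 UMIs, 6 HFD cells held 1215 of 1569, and 3 ND and 5 HFD cells had none. Without the highest cell of each library the levels were 783.5 and 4442, and the median cell of the fraction stood at 537 and 2402, against 906 and 570 in the cells with fewer Spp1 UMIs. Ibsp and Bglap went in opposite directions in the 2 fractions, and Timp1 did so only with the highest cells counted. With at least 10 Spp1 UMIs, Ibsp stood at 4891 in ND and 12588 in HFD, Timp1 at 1030 and 2007 and Bglap at 8145 and 6134. With fewer, Ibsp stood at 4756 and 3364, Timp1 at 566 and 319 (242 and 246 without the highest cells) and Bglap at 4908 and 6113. The summed level of Timp3 was higher in HFD in both (509.7 and 977, and 308 and 455). With at least 10 Spp1 UMIs, however, 1 HFD cell held 96 of 293 Timp3 UMIs. Without the highest cell of each library the levels there were 491 and 713. The median cell of that fraction was lower in HFD (546 and 429), and with fewer Spp1 UMIs it was higher (205 and 338). Mmp2 (976 in ND and 847 in HFD) and Mmp14 (336 and 363) lay close together in the cells with at least 10. With fewer, Mmp2 stood at 1240 (1135 to 1352) and 1590 (1504 to 1680), and Mmp14 at 563.5 and 588. S100a8, a neutrophil marker, was read in 45 of 58 ND and 116 of 128 HFD osteogenic-like cells. It had 2941 UMIs in HFD, of which 2534 lay in 1 droplet with 108 Mmp13 UMIs, and without that droplet Mmp13 stood at 2687. In ND, S100a8 had 235 UMIs and the like droplet held 1 Mmp13 UMI. Without these droplets S100a8 stood at 320.3 and 380.3 CPM. Without the cells that scored as doublets, 1 in each library, Mmp13 stood at 1665 in ND and 2721 in HFD.

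In osteogenic-like cells as a whole, 15 members had at least 20 UMIs, of which 5 were at least 1.5-fold higher in HFD (12.2% of all 7552 genes with as many UMIs) and 1 was lower (10.4%). Timp3 stood at 345 and 597 (ratio 1.73, 1.46 to 2.06), with 42 of 58 and 96 of 128 cells positive. In HFD 1 cell held 96 of the 658 Timp3 UMIs, and without the highest cell of each library the levels were 324 and 521. Mmp16, a membrane-type MMP (8 UMIs in ND and 32 in HFD), Adamts4 (9 and 39) and Adamts12 (5 and 18) passed 1.5-fold on counts whose ratio intervals held 1. Adamts1, a protease of versican and aggrecan, was lower in HFD with 189 and 87.1 CPM (0.460, 0.343 to 0.617), but 1 ND cell held 38 of its 96 ND UMIs, and without the highest cell of each library the levels were 124 and 81.0. The procollagen propeptidase Adamts2 stood at 201 and 272 (1.35, 1.08 to 1.71). For Mmp14 the interval of the ratio held 1 (522 and 527, ratio 1.01, 0.871 to 1.17).

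Ccl11/Col15a1 fibroblast-like cells held the other MMP difference. Of 18 measured members, 4 were at least 1.5-fold higher in HFD (Mmp3, Mmp14, Adamts4 and Adamts12, against 11.6% of 8945 genes) and 3 were lower (Mmp16, Adamts9 and Timp1, against 7.42%). Of the lower members, Mmp16 had only 11 UMIs in ND and 12 in HFD. Adamts9 had 13 and 9, and 1 ND cell held 7 of the 13. Mmp3 had 20 UMIs in ND and 173 in HFD, or 19.9 and 102 CPM. These came from 9 of 93 and 27 of 160 cells, and 1 HFD cell held 58 of the 173 UMIs. Without the highest cell of each library the levels were 13.25 and 69.1. Mmp3 was thus a transcript of a minority of these cells in both libraries.

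Mmp14 was read in more cells of this subclass, whereas the Adamts12 sum rested on few. Mmp14 stood at 114 CPM in ND and 194 in HFD (ratio 1.70, 1.37 to 2.12), with UMIs in 59 of 93 and 111 of 160 cells and no cell above 9 and 20 UMIs. Adamts12 stood at 29.85 and 69.9 (2.34, 1.56 to 3.62) in 20 and 46 positive cells, and at 26.1 and 58.3 without the highest cell of each library. In HFD 7 cells held at least 50% of its UMIs. After thinning each cell to 1000 UMIs, 4.30% of ND and 3.77% of HFD cells had an Adamts12 UMI. Adamts5 was lower in HFD with 426 and 320.3 (0.752, 0.661 to 0.856), whereas in Pi16/Dpp4 fibroblast-like cells the interval held 1 (661 and 684, ratio 1.035, 0.939 to 1.14). The difference between these 2 subclasses was not tested.

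The remaining subclasses showed fewer differences. In Pi16/Dpp4 fibroblast-like cells 1 of 15 measured members was higher by 1.5-fold (Adamts12, 13.9 and 25.3, with an interval of 0.983 to 3.50, against 10.1% of genes) and 1 lower (Timp1, against 7.98%). In Tnmd-low tenocyte-like cells 2 of 18 were higher (Mmp16 and Timp1, against 10.2%) and 2 lower (Adamts4 and Adamts17, against 7.79%), and Mmp2 stood at 809 in ND and 669 in HFD (0.828, 0.753 to 0.911). There Mmp16 had 7 (ND) and 20 (HFD) UMIs, Adamts4 26 and 21, and Adamts17 22 and 18. Mmp3 was at 47.6 and 61.3 in the latter cells (1.29, 0.894 to 1.87). In the 34 HFD Tnmd-high tenocyte-like cells Mmp3 had 47 UMIs, 40 of them in 1 cell, against 1 UMI in 7 ND cells. The chondrocyte-like cells (7 ND and 17 HFD) and synovial lining-like cells (6 and 16) were too few to set side by side.

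Timp1, the inducible inhibitor, pointed in opposite directions between diets in different subclasses. In Pi16/Dpp4 fibroblast-like cells it stood at 137 CPM in ND and 41.1 in HFD (ratio 0.300, 0.215 to 0.412), and in Ccl11/Col15a1 fibroblast-like cells at 131 and 81.7 (0.622, 0.4865 to 0.796). In Tnmd-low tenocyte-like cells it stood at 99.0 and 155 (1.57, 1.23 to 2.00), and in osteogenic-like cells at 650 and 778 (1.20, 1.05 to 1.36). Single cells carried much of these sums. One HFD cell held 116 of the 210 UMIs in Tnmd-low tenocyte-like cells, and without the highest cell of each library the order there turned to 87.6 in ND and 70.9 in HFD. One ND cell held 60 of 168 UMIs in Pi16/Dpp4 fibroblast-like cells, where the order remained (90.4 and 35.9), and 1 ND cell held 144 of 330 UMIs in osteogenic-like cells (397 and 702 without the highest cells). In HFD 6 osteogenic-like cells held at least 50% of the Timp1 UMIs. The differences between subclasses were not tested. The shares of Pi16/Dpp4 cells with a Timp1 UMI were 33 of 94 and 30 of 107.

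Set against the MMPs alone, and with the neutrophil granule genes left out, the inhibitors were in the minority in osteogenic-like cells. They were in the majority in the other larger stromal, vessel and myeloid groups. TIMP UMIs per MMP UMI were 0.723 in ND and 0.636 in HFD osteogenic-like cells, against 1.94 and 2.54 in Tnmd-low tenocyte-like, 2.10 and 1.69 in Ccl11/Col15a1 fibroblast-like and 5.125 and 4.51 in Pi16/Dpp4 fibroblast-like cells. Leaving Mmp13 out of the sum gave 1.33 and 1.43 in osteogenic-like cells, above 1 in both libraries. Over all mesenchymal-like cells the quotient was 2.135 (ND) and 1.58 (HFD), and 2.56 and 2.22 without Mmp13. By this quotient, vessel and neutrophil classes lay far on the inhibitor side. It was 18.0 and 15.1 in endothelial-like, 23.6 and 19.9 in pericyte or smooth muscle cell-like and 32.9 and 14.5 in neutrophil-like cells. In neutrophil-like cells the direction turns on that choice: with Mmp8, Mmp9 and Mmp25 counted, the quotient was 0.126 and 0.136. In macrophage or monocyte-like cells it was then 3.17 and 2.49, against 13.3 and 5.96, and in osteogenic-like cells 0.721 and 0.629. In endothelial-like cells it was then 8.57 and 6.515. In pericyte or smooth muscle cell-like cells it was 3.37 and 11.2, so that the order of the diets turned. There 78 of 91 ND and 27 of 62 HFD MMP UMIs so counted came from Mmp8, Mmp9 and Mmp25, so the quotient without them rests on few MMP UMIs. Mmp2, Mmp3 and Mmp13, read in neutrophil-like cells at 4.19, 0.313 and 0.876 CPM in ND and at 10.15, 2.405 and 4.165 in HFD, were each highest in mesenchymal-like cells. B cell-like cells lay near 1 (0.980 and 1.02), where all MMPs together reached 13.2 and 16.5 CPM. ADAMTS members were not part of the quotient. In Ccl11/Col15a1 fibroblast-like cells they had 1051 (ND) and 1851 (HFD) UMIs, the MMPs 942 and 2004, and the TIMPs 1976 and 3391. In pericyte or smooth muscle cell-like cells Adamts1 alone had 293 and 701 UMIs, against 307 and 697 for the TIMPs.

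**Figure D4:**
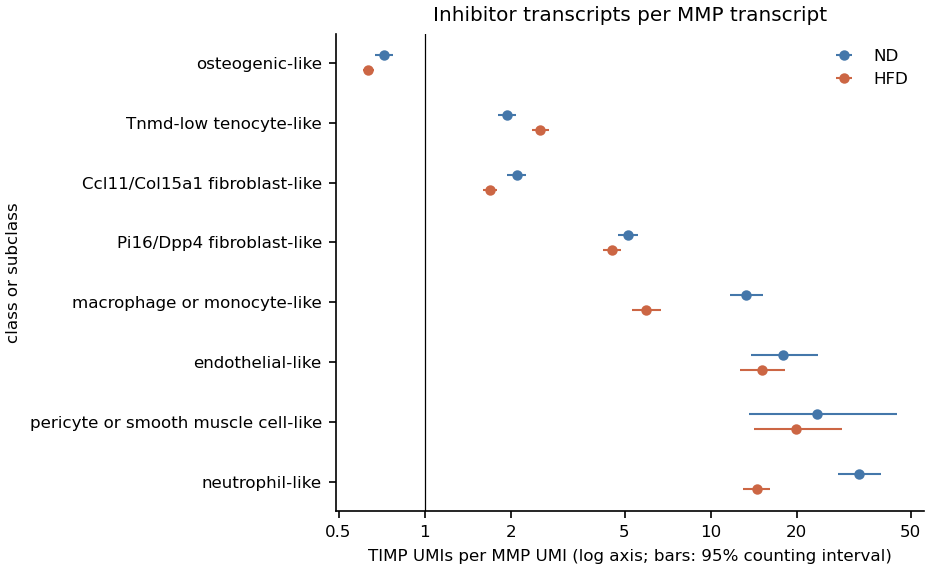
TIMP UMIs per MMP UMI without Mmp8, Mmp9 and Mmp25, on a log axis with 95% counting intervals as bars, in 4 mesenchymal subclasses and 4 other classes of the ND and HFD libraries. The osteogenic-like cells lie left of 1, at 0.723 and 0.636, and the endothelial-like, pericyte or smooth muscle cell-like and neutrophil-like cells lie above 10.

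The vessel wall had its own members. Timp4 was an endothelial transcript, with 785 CPM in ND and 665 in HFD endothelial-like cells (ratio 0.848, 0.753 to 0.955) and UMIs in 70 of 117 and 149 of 231 cells. In pericyte or smooth muscle cell-like cells Timp4 stood at 158 and 369 (2.33, 1.705 to 3.24), with UMIs in 16 of 31 and 32 of 59 cells. There 1 HFD cell held 50 of 208 UMIs and 4 HFD cells at least 50%. The levels were 134.9 and 288 without the highest cell of each library. Timp3 was highest in the same classes, with 973 and 882 in endothelial-like and 681 and 685 in pericyte or smooth muscle cell-like cells, and every one of the 31 ND pericyte or smooth muscle cell-like cells and 57 of 59 HFD cells had a Timp3 UMI. Mmp15, a membrane-type MMP, was endothelial at 81.4 and 74.0, and Adamts9, a proteoglycanase, stood at 43.3 and 55.3 there.

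Pericyte or smooth muscle cell-like cells held the highest levels of 2 aggrecan- and versican-cleaving members. Adamts1 stood at 928 in ND and 1244 in HFD (1.34, 1.17 to 1.54) with UMIs in 28 of 31 and 49 of 59 cells, although the median cell was at 695 and 583. Adamts4 stood at 225 and 220.1, and Adamts5 at 129.9 and 120.7. In endothelial-like cells 9 members were measured, of which Adamts5 was at least 1.5-fold higher in HFD (7 and 27 UMIs, against 10.1% of 7773 genes) and Adamts4 lower (15 and 15 UMIs, 26.0 and 13.4 CPM, against 9.39%), both with ratio intervals that held 1. Neutrophil marker RNA was high in both vessel classes, with the 7 markers summing to 16557 (ND) and 14411 (HFD) CPM in endothelial-like cells and to 25711 and 23178 in pericyte or smooth muscle cell-like cells.

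Outside the stroma the most abundant member was Timp2. Among macrophage or monocyte-like cells it marked the cluster led by C1qa, Lyve1 and Vsig4, genes of tissue-resident macrophages. There it stood at 1728 CPM in ND and 997 in HFD (ratio 0.577, 0.544 to 0.611; 135 and 148 cells), against 43.2 and 26.8 in the F13a1- and Ccr2-led cluster. The median cell of the resident-macrophage cluster held 1149 and 594, the shares of its cells with a UMI were 108 of 135 and 118 of 148, and no cell held more than 5.13% of the UMIs. The lower HFD level was seen in the median cell as well as in the sum. Over the whole macrophage or monocyte-like class Timp2 stood at 486.5 and 298 (0.613, 0.579 to 0.648).

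In neutrophil-like cells Timp2 differed between clusters and hardly between diets. It was lowest in the cluster led by Camp, Ngp and Chil3 together with Fcnb (56.5 and 63.5 CPM) and stood at 107 and 121 in the cluster led by Ngp, Camp and Ltf, genes of immature neutrophils that are filling their granules. It reached 385 and 423 in the cluster in which Ngp and Ltf were joined by Retnlg, and 538 and 549 in the cluster led by Retnlg and Stfa2l1, genes of mature neutrophils. The cluster led by Il1b and Cxcl2 stood at 219.7 and 233. A sixth cluster, also led by Ngp and Retnlg, stood at 324.6 and 344.7 but held 229 ND and 20 HFD cells. The order of the first 5 was the same in both libraries, and their median depths ran from 27362 UMIs per cell (the Fcnb cluster) to 2732 (Il1b and Cxcl2), so that the levels are shares of very different totals. The class as a whole stood at 279.6 and 291.

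**Figure D5:**
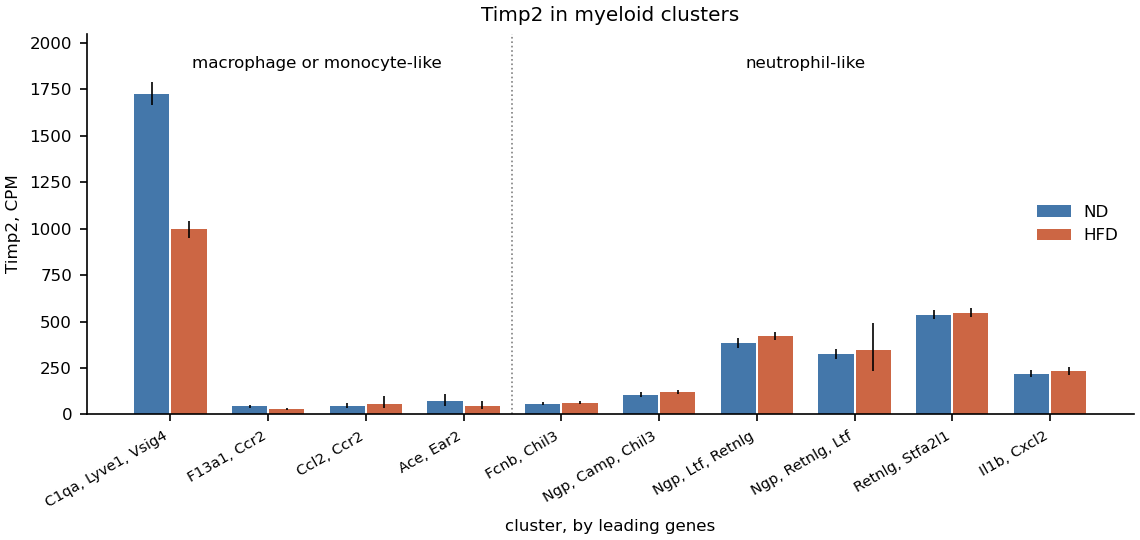
Timp2 in CPM in 4 macrophage or monocyte-like and 6 neutrophil-like clusters, each named by its leading genes, in the ND (blue) and HFD (orange) libraries, with exact 95% counting intervals as bars. The cluster led by C1qa, Lyve1 and Vsig4 stands at 1728 and 997, and among neutrophil-like clusters the bars run from 56.5 to 549.

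Mmp12, the macrophage elastase, was read in macrophage or monocyte-like cells, but in very few of them. It had 25 UMIs in 10 of 526 ND cells and 132 UMIs in 10 of 532 HFD cells, and 1 HFD cell held 97 of these. Without the highest cell of each library the levels were 1.81 and 5.305 CPM. Another 26 ND UMIs lay in cells that stayed unnamed. Mmp19 was shared by macrophage or monocyte-like cells (18.8 and 22.6) and mesenchymal-like cells (19.45 and 13.9), with UMIs in 80 of 526 and 80 of 532 of the former.

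In lymphoid cells 9 members had at least 20 UMIs in B cell-like and 3 each in NK and T cell-like cells. Timp2 led, at 11.35 and 12.85 CPM in B cell-like, 42.7 and 60.9 in NK cell-like and 29.2 and 33.2 in T cell-like cells. Adamts14, a procollagen propeptidase, was highest in NK cell-like cells at 42.7 CPM in ND and 53.1 in HFD, from 31 and 34 UMIs in 26 of 130 and 30 of 108 cells. In B cell-like cells it stood at 1.83 and 1.05. Adamts7 stood at 9.13 and 9.18 in B cell-like cells and most of these UMIs lay in 2 clusters of precursors: the cluster led by Vpreb3 and Ebf1 stood at 54.0 and 34.3 and the one led by Vpreb1, Igll1 and Dntt, genes of early B cell development, at 43.9 and 47.55. Mmp11 (6.52 and 6.16) and Adamts6 (6.00 and 4.85) were also read in B cell-like cells, while Mmp11 was higher in mesenchymal-like cells (14.6 and 15.05). Adamts10, which binds fibrillin microfibrils, was spread over the classes and lay between 4.93 and 63.5 CPM in all classes but muscle and erythroid cell-like cells.

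The rest of the set was barely read. Mmp17 had 43 UMIs over both libraries, Adamts8 had 28, Adamts20 had 6 and Mmp24 had 2, and Mmp28 (103) was spread over several classes. Most UMIs of Adamts15 (136) and Adamts3 (93) lay in mesenchymal-like cells. These held 80.4% (ND) and 75.3% (HFD) of Adamts15 and 60.5% and 70.9% of Adamts3. In Schwann cell-like cells, the class in which Mmp17 and Adamts10 were highest, these 2 rested on 3 and 13 UMIs. Mmp12 and Mmp24 had no UMI in mesenchymal-like cells, which allows up to 0.6275 CPM in ND and 0.430 in HFD.

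The 59 other genes of the pathway came from lists of activators, inhibitors, related proteases, ADAMTS-like proteins, substrates and left-out or further family members. Of these, 46 had at least 20 UMIs in mesenchymal-like cells. In HFD 4 were at least 1.5-fold higher and 3 lower, and 2 of those 3 were left-out or further family members, such as Mmp8. These counts lay near the background of 8.03% and 5.82% over all genes. Furin, which activates many of these precursors, stood at 60.9 and 73.55 CPM (ratio 1.21), Reck, a membrane-anchored MMP inhibitor, at 64.2 and 65.4 (1.02), and Lrp1, the receptor that clears MMPs and TIMPs, at 591 and 631 (1.07). The highest ratios among those with at least 200 UMIs belonged to substrates: Acan (17.8 and 77.7, ratio 4.37) and Col2a1 (63.6 and 250.5, ratio 3.94), both cartilage genes, and Col1a1 (4431 and 6579, ratio 1.485). Chondrocyte-like cells were 7 in ND and 17 in HFD. The lowest belonged to Mmp8 (72.2 and 36.85, ratio 0.511), a neutrophil collagenase, the urokinase receptor Plaur (61.9 and 37.4, ratio 0.604) and Ecm1 (919 and 652, ratio 0.7095). Within osteogenic-like cells Col1a1 stood at 22408 and 22741.

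Across 20 classes and subclasses of the ND library, and as a description only, the 3 genes whose log2 level followed Mmp13 most closely were Ostn (Pearson r = 0.84), Tnn (0.81) and Fgfr2 (0.78), out of 10100 genes. In the HFD library the same pairs gave 0.66, 0.55 and 0.50. For Adamts5 they were Antxr1 (0.96), Fstl1 (0.95) and Sdc2 (0.94), with 0.92, 0.97 and 0.93 in HFD. The points share libraries and depth.

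Immediate-early genes, neutrophil markers and stromal genes read in other cells also differed between the libraries. The 19 immediate-early and dissociation genes, among them Fos and Jun, summed to 29248 CPM (ND) and 22542 CPM (HFD) over mesenchymal-like cells, where 3 of 19 were at least 1.5-fold lower in HFD and 0 higher. In osteogenic-like cells they summed to 25829 and 16363, with 12 of 19 lower. The 7 neutrophil markers summed to 17689 CPM (ND) and 8986 CPM (HFD) over mesenchymal-like cells. Mesenchymal members were also read at low levels in other classes. In neutrophil-like cells Adamts5 stood at 0.876 and 3.87 and Timp1 at 0.563 and 2.05. The part of these shifts in the differences given above was not tested. Several members overlap other coding genes (Timp1 with Syn1, Timp3 with Syn3 and Timp4 with Syn2 on the opposite strand, and Timp2 with Cep295nl on the same strand), so reads from the shared stretches are uncertain for them.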

How the data were processed

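Cells of the periosteum were captured with 10x Genomics 3′ droplets. According to the submitters' processing notes, reads were processed with Cell Ranger 6.0.1 against mm10. The authors deposited raw UMI counts per gene and barcode in 1 matrix per diet (48558889 UMIs in 6314 ND barcodes and 49940976 in 6636 HFD barcodes). The labels list 4 mice per diet, but no barcode is tied to a mouse, so no test between diets was made.

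Barcodes with over 500 and under 8000 genes and under 20% mitochondrial UMIs were kept. Cells were normalised with sctransform 0.4.2 and clustered with Seurat 5.3.0 (R 4.3.3) at resolution 0.5, and mesenchymal-like cells again at 0.8, with the members and the 3 left-out genes removed from the features. Clusters were named from fixed marker lists, with limits set after the data were seen. Doublets were scored with Scrublet (scanpy 1.11.5): the automatic threshold marked 10 and 11 cells and was taken as not working, so doublets were kept, and a score of 0.2 (144 and 122 cells) was used as an alternative.

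Counts were summed per library and group (Python 3.11.15, pandas 2.3.3, scipy 1.17.1). Levels carry exact Poisson, shares Clopper-Pearson and ratios exact conditional binomial 95% intervals, and a count of 0 was read as allowing 3 counts. A gene was measured in a group at 20 UMIs over both libraries, and was called higher or lower at 1.5-fold after adding 0.5 to counts. The script was tested on simulated data. All 33 members were named. Of the other pathway genes, the text names the 3 highest and 3 lowest ratios among those with at least 200 UMIs, and Furin, Reck and Lrp1. The 3 genes most like Mmp13 and Adamts5 were taken by Pearson correlation over groups in ND. Spp1, Ibsp, Bglap, Col1a1 and S100a8 were chosen after their values were seen. Members and lists were chosen with earlier results of these data known. Alternatives covered thinning, filters, clustering, weighting and doublets.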

Additional observations from a re-analysis of the deposited data

Results flagged for a closer look

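Timp1 stood out because its ratio of HFD over ND went in opposite directions in different mesenchymal subclasses. It was 1.57 in Tnmd-low tenocyte-like cells, 0.622 in Ccl11/Col15a1 fibroblast-like cells and 0.300 in Pi16/Dpp4 fibroblast-like cells. The difference between subclasses was not tested, since each diet was 1 pooled library. Without the highest cell of each library the levels in ND and HFD were 87.6 and 70.9 CPM in Tnmd-low tenocyte-like cells, 98.3 and 70.05 in Ccl11/Col15a1 fibroblast-like cells and 90.4 and 35.9 in Pi16/Dpp4 fibroblast-like cells, so that the order in Tnmd-low tenocyte-like cells turned. In osteogenic-like cells, whose ratio was 1.20, the levels without the highest cells were 397 and 702. There 6 HFD cells held at least 50% of the Timp1 UMIs, and the median cell stood at 105.6 in ND and 126.7 in HFD. The Timp1 sum in osteogenic-like cells thus rested on few cells, while the median cell also stood slightly higher in HFD.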

How the results depend on the processing

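No paired analysis was possible because no barcode is tied to a mouse, although the labels number the mice 1 to 4 in both diets, and for the same reason no mouse could be left out in turn. Removal of the doublets marked by the automatic threshold was not run. The alternatives on doublet score, unnamed clusters, highest cells, equal cell weights and granule genes were chosen after seeing the data. None of the members past 1.5-fold in mesenchymal-like cells (Mmp3, Mmp13, Adamts12 and Adamts16) changed direction. For the other members a change of direction was not counted. One example is Adamts17, with a ratio of 0.905 as counted. After thinning it was read in 1 of 409 ND and 6 of 664 HFD cells. There were 21 calls past 1.5-fold in a subclass or in endothelial-like cells, with a member counted once for each group. Without the highest cell, 1 of these moved out of its interval and 1 reversed. In the reversed call the log2 ratio of Timp1 in Tnmd-low tenocyte-like cells became -0.31. After thinning to 1000 UMIs, 14 members were measured in mesenchymal-like cells in place of 25, the higher members were Mmp13, Mmp14 and Adamts4 in place of Mmp3, Mmp13 and Adamts12, 0 were lower, the median log2 ratio was 0.30, the shares of member UMIs were 48.9% (ND) and 60.7% (HFD), and TIMP UMIs per MMP UMI were 2.02 and 1.46. The members higher in HFD numbered 6 with a minimum of 1 UMI and 6 with each cell weighted equally, against 3. The members lower in HFD numbered 2 with a minimum of 1 UMI, against 1, and 0 with a minimum of 100 UMIs, at 2-fold, without the unnamed clusters and without the highest cell. With the same subclass weights and with each cell weighted equally, Adamts9 was lower in place of Adamts16. The shares were 65.1% and 73.45% with the B cell-like level subtracted, 62.9% and 71.2% without doublets, 55.75% and 66.3% without the unnamed clusters, and 61.1% and 69.85% without the highest cell. TIMP UMIs per MMP UMI were 2.03 and 1.54 without the unnamed clusters, 1.62 in HFD without the highest cell, and 1.93 and 1.51 with Mmp8, Mmp9 and Mmp25 counted. The causes were not tested. Of the 25 members, 12 moved by less than their interval after thinning, 16 with equal cell weights, 19 with the same subclass weights and 24 under each of the other 4 settings. Members with few UMIs carry wide counting intervals, and the spread between mice is unknown.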
